A study of Mus musculus with 23 samples.

Results

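The genes described here are the scaffold and the epithelial claudins of the tight junction, 9 genes chosen by symbol from the 35322 rows of the deposited expression table. They are Cgn, Tjp1 and Tjp3 of the cytoplasmic plaque, the membrane protein Ocln, and the claudins Cldn1, Cldn3, Cldn4, Cldn7 and Cldn18. Each of the 9 symbols has 1 row, and the values were measured in the lungs of 23 female BALB/c offspring aged 13 weeks. The Sham (n = 7) and PM (n = 7) groups were offspring of dams given saline or ambient fine particles (PM2.5) into the nose before mating, during gestation and until weaning. Both were sham-treated controls of the challenge and received nebulised saline according to the study's methods, whereas the labels name PBS. The Sham-OVA (n = 5) and PM-OVA (n = 4) groups came from the same kinds of dams, were sensitised to ovalbumin (OVA) with alum and were then challenged with aerosolised OVA, a model of allergic airway disease (AAD). The methods name the tissue as the right lower lobe and the labels give the abbreviation RML. The lungs were taken after lung function had been tested with methacholine, which all 4 groups share.

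Tight junctions are the most apical contacts between epithelial cells and set how freely ions, solutes and particles pass between them. Claudins form the strands of the junction, and their mixture decides how tight or how ion-selective it is. Occludin, the product of Ocln, is a MARVEL-domain protein that sits in the same strands. The zonula occludens proteins ZO-1 (Tjp1) and ZO-3 (Tjp3) bind the tails of claudins and occludin and tie them to actin, and cingulin (Cgn) links ZO-1 to the actomyosin ring. In the lung, claudin-18 is a major claudin of alveolar epithelium, claudin-3 and claudin-4 are found in alveolar type 2 and airway cells, and claudin-7 and claudin-1 line the airways.

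The tables hold 1 value per gene and library as the reads of that gene scaled to the library total (RPM), without a correction for gene length. The reads on genes ranged from 13089691 to 17393579 in the 14 saline libraries and from 2298645 to 12355561 in the OVA libraries. A total of 3 OVA libraries held under 6000000 reads, namely Sham-OVA replicate 3, PM-OVA replicate 3 and PM-OVA replicate 4. In Sham-OVA replicate 3 a single read was worth 0.311 RPM, and in the saline libraries at most 0.0688 RPM. Sham replicate 1 held Xist at 0.289 RPM and the Y-linked gene Eif2s3y at 54 RPM, which goes against its label of a female, and it is called the library labelled Sham replicate 1 below. Lung markers were present in all groups, with a mean of 10058 RPM of the surfactant gene Sftpc and 1608 RPM of the alveolar type 1 gene Ager in Sham. In whole lung, fewer cells of a type and less RNA per cell cannot be told apart for any of the values below. The labels do not say which offspring shared a dam, so the p-values measure the spread between these samples.

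By the GENCODE annotation of GRCm38, Cgn lies on chromosome 3 (94760069 to 94786492), Tjp1 on chromosome 7 (65296165 to 65527781), Tjp3 on chromosome 10 (81273207 to 81291581) and Ocln on chromosome 13 (100496507 to 100552718), all on the minus strand. Cldn1 lies on chromosome 16 (26356642 to 26371841) and Cldn18 on chromosome 9 (99689461 to 99717267), both on the minus strand, and Cldn7 lies on chromosome 11 (69964779 to 69967885) on the plus strand. Cldn4 (134945119 to 134946934, minus strand) and Cldn3 (134986214 to 134987472, plus strand) are neighbours on chromosome 5, with a gap of 39279 bases and no other annotated gene between them. Both of these are genes of 1 exon, whereas Tjp1 has up to 28 exons in a transcript. Apba3 on the opposite strand overlaps Tjp3, and the sources used here do not say whether reads were counted by strand.

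The 250 bases before the annotated starts are shown for the 3 genes with the largest falls after OVA and for Tjp3, which moved the other way. The sequences are from RefSeq (GRCm38.p6), are written 5′ to 3′ on the gene's strand and end at the base before the start. Capitals mark the GC box (GGGCGG), the Snail-type E-box (CAGGTG) and the Grainyhead motif (AACCNGTT), each searched on both strands. Some genes have a second RefSeq start, and the first is shown. The Tjp1 window lies inside the GENCODE gene, since the RefSeq start is that of a shorter transcript.
Cgn, chr3:94786483-94786732: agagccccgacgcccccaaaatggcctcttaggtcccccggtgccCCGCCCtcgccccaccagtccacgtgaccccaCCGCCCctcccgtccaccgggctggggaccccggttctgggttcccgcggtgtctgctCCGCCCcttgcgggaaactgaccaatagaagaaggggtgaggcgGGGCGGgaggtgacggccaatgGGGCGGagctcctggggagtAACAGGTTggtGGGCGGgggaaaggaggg
Tjp1, chr7:65371245-65371494: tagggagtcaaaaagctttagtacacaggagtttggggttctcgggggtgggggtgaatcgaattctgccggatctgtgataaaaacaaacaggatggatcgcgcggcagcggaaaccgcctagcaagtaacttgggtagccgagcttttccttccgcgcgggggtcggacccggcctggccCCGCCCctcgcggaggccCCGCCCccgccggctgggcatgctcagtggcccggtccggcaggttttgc
Ocln, chr13:100552719-100552968: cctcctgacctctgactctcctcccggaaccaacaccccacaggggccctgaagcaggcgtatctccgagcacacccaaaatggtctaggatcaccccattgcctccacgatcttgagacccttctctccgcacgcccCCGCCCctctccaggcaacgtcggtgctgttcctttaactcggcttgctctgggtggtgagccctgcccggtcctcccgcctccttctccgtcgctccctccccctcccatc
Tjp3, chr10:81291582-81291831: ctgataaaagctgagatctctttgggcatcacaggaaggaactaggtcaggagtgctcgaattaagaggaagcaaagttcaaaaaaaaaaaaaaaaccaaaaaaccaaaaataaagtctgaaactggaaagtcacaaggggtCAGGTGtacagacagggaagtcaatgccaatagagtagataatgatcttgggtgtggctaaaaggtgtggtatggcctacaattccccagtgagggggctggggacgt
The Cgn window held 6 GC boxes, 19 CpG dinucleotides and the Grainyhead motif 1 time, 29 bases from the start. The Tjp1 window held 2 GC boxes and 22 CpG, and that of Ocln held 1 GC box and 14 CpG. The Tjp3 window held no GC box, 2 CpG and 1 Snail-type E-box. At the second start, not shown, the Ocln window held 1 GC box, 22 CpG and 2 Snail-type E-boxes. The second Tjp3 window held no GC box, 7 CpG and 1 Snail-type E-box. Of 32851 mouse promoter windows of the same length, 32.7% held a GC box, 17.2% the E-box and 1.79% the Grainyhead motif, and the median was 6 CpG. The marked stretches did not overlap each other in these windows, and they are matches of letters, not measured binding.

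In saline lung Cldn18 and Cldn3 were the most abundant of the 9 genes. Per kilobase of exon, Cldn18 stood highest in Sham at 234 ± 32.3 RPM per kb (SD, n = 7), followed by Cldn3 at 152 ± 29.5. Tjp1 came next at 53.3 ± 5.82, then Cldn7 at 29.5 ± 4.81 and Ocln at 21.7 ± 5.12 RPM per kb. The lowest were Cldn4 (5.64 ± 1.67), Cgn (4.41 ± 1.29), Tjp3 (4.22 ± 0.427) and Cldn1 (3.31 ± 1.11), whose ranges of mean ± SD touch those of their neighbours. The order was the same in PM except that Cgn (5.22 ± 1.16) stood above Cldn4 (4.89 ± 0.975). In Sham-OVA (n = 5) Cldn18 at 125 ± 29.7 and Cldn3 at 81.5 ± 18.8 RPM per kb were still highest, Cldn7 at 32.9 ± 12.7 stood above Tjp1 at 9.63 ± 3.80, and Cgn at 0.0343 ± 0.0262 was last.

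OVA challenge went with a split among these genes in both maternal groups. Cgn, Tjp1 and Ocln fell most, Cldn18 fell less and Tjp3 rose, while the calls of the other claudins differed between the comparisons or the fits. In Sham-OVA against Sham, 1 of the 9 genes was higher and 5 were lower at an adjusted p under 0.05 (limma, Benjamini-Hochberg over 16795 genes). Among all genes tested 20.6% were called higher and 47.5% lower in that comparison, and the median log2 fold change of all genes was −0.48. In PM-OVA against PM, 3 of the 9 were higher and 4 lower, beside 20.1% and 45.2% of all genes and a median of −0.43. The 2 OVA comparisons share no library. All 9 genes passed the filter of at least 0.5 RPM in at least 4 libraries, but Cgn did so in 14 saline and 3 OVA libraries. By a stricter rule (log2 fold change beyond 1 in size, adjusted p under 0.000001) Cgn was the 1 gene called in Sham offspring and 0 of the 9 were called in PM offspring, where limma called 4.51% and 0.286% of all genes. The study used this cut-off with DESeq2, which was not rerun at that cut-off here. Its supplement lists Cgn and Tjp1 among genes whose expression changed with OVA in both maternal groups. Scalings that move the median of all genes nearer to 0 changed the split over all genes. Higher genes made up 30.2% of the calls in Sham offspring and 43.4% with median-of-ratios scaling, 48.5% with quantile normalisation and 49.6% in edgeR. In PM offspring the share was 30.8%, 44.8%, 49.3% and 50.1% in the same order. Of the 9 genes, 2 were then higher and 5 lower in Sham offspring with either scaling, and 3 were higher and 5 lower in edgeR, while 3 were higher and 4 lower in PM offspring in all of these fits.

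**Figure D1:**
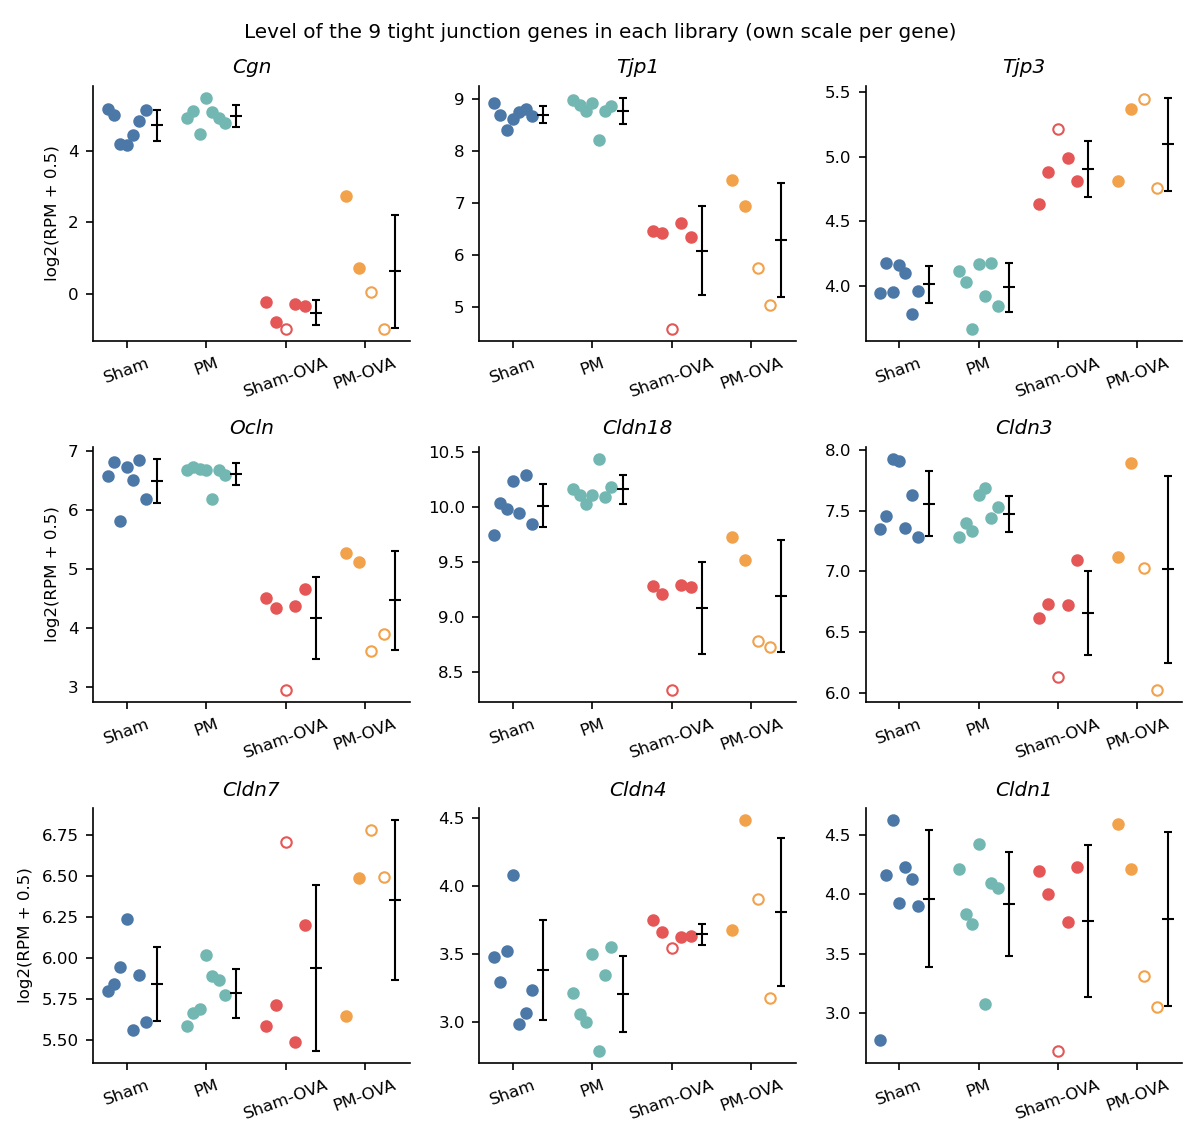
Level of each gene as log2(RPM + 0.5) on the vertical axis, 1 point per library in the 4 groups, with the mean ± SD as a black bar and a vertical scale of its own for each gene. Open points are the 3 OVA libraries with under 6000000 reads. For Cgn, Tjp1, Ocln and Cldn18 every OVA library lies below every saline library, and for Tjp3 every OVA library lies above.

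Cgn showed the largest change of the 9. It stood at 17.2, 28.0 and 35.3 RPM in the lowest, median and highest Sham library, from 271 to 691 reads. In Sham-OVA replicates 1 to 5 it stood at 0.347, 0.0752, 0, 0.319 and 0.292 RPM, which are 5, 1, 0, 4 and 4 reads. The groups did not overlap, and the mean in Sham-OVA was 0.778% of that in Sham. The log2 fold change was −5.24 ± 0.24 (SE) on the log2(RPM + 0.5) scale with an adjusted p of 1.41e-09, the 6th lowest of 16795 genes. In PM it stood at 21.7, 29.9 and 44.2 RPM (lowest, median, highest), and in PM-OVA replicates 1 to 4 at 6.18, 1.16, 0.531 and 0 RPM, or 92, 15, 4 and 0 reads. These groups did not overlap either, the PM-OVA mean was 6.26% of the PM mean, and the log2 fold change was −4.34 ± 0.51 with an adjusted p of 5.00e-05, the 25th lowest of all genes. A count of 0 allows up to 0.932 RPM in Sham-OVA replicate 3 and 0.545 RPM in PM-OVA replicate 4, counting error only. The size of the fall depends on the pseudocount, being −6.60 and −5.20 in Sham and PM offspring with 0.1 and −4.47 and −3.85 with 1. Without PM-OVA replicate 1 the PM value was −5.04, without PM-OVA replicate 4 it was −3.80, and without both shallow PM-OVA libraries it was −3.23.

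Tjp1, which encodes the central scaffold of the plaque, fell in both maternal groups. It stood at 339, 415 and 484 RPM in the lowest, median and highest Sham library, and at 88.3, 85.5, 23.3, 97.9 and 81.1 RPM in Sham-OVA replicates 1 to 5. Sham-OVA replicate 3 was far below its 4 neighbours, which lay close together. The log2 fold change was −2.61 ± 0.28 with an adjusted p of 2.36e-06, or −2.13 relative to the median gene. In PM it stood at 298, 469 and 503 RPM, and in PM-OVA replicates 1 to 4 at 174, 123, 53.2 and 32.5 RPM. The log2 fold change was −2.47 ± 0.36 with an adjusted p of 0.000172, and the groups did not overlap in either maternal group. With the 3 shallow libraries left out the falls were −2.23 and −1.57, and both were called. The study's cell-type analysis listed Tjp1 among endothelial signature genes, and Cgn and Cldn18 among epithelial ones. Of 8 endothelial marker genes, 3 were lower and 1 higher in both comparisons, beside 47.5% and 45.2% lower among all genes. Cdh5 was the lowest of them (−1.49 and −1.46) and Emcn the highest (1.13 and 0.85). The part of endothelial cells in the values of Tjp1 was not tested.

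Tjp3, the gene of the related scaffold ZO-3, moved the opposite way to Tjp1. It stood at 13.2, 15.0 and 17.6 RPM in Sham (lowest, median, highest) and at 24.3, 29.0, 36.7, 31.2 and 27.5 RPM in Sham-OVA replicates 1 to 5. In PM it stood at 12.2, 15.8 and 17.6 RPM and in PM-OVA replicates 1 to 4 at 27.6, 40.7, 43.1 and 26.5 RPM. All 9 OVA libraries were above all 14 saline libraries. The log2 fold change was 0.90 ± 0.14 in Sham offspring (adjusted p = 8.00e-05) and 1.11 ± 0.18 in PM offspring (adjusted p = 0.000266). Apba3, which overlaps Tjp3, went from a mean of 26.8 RPM in Sham to 19.9 in Sham-OVA, the opposite direction. The ratio of Tjp3 to Tjp1 within a library rose by 3.50 on the log2 scale in Sham offspring (exact permutation p = 0.00126, adjusted over 28 ratio tests 0.00884) and by 3.58 in PM offspring (p = 0.00303, adjusted 0.0106). These are the smallest p-values that groups of these sizes allow. The ratio of Cgn to Tjp1 fell by 2.63 and 1.86 with the same p-values, so Cgn fell further than its binding partner in both.

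Ocln, the gene of occludin, fell together with Tjp1. It stood at 55.2, 93.9 and 114 RPM in Sham (lowest, median, highest) and at 22.2, 19.6, 7.15, 20.2 and 24.7 RPM in Sham-OVA replicates 1 to 5. Its log2 fold change was −2.33 ± 0.27 with an adjusted p of 4.75e-06. In PM it stood at 72.1, 101 and 105 RPM, in PM-OVA replicates 1 to 4 at 37.8, 34.0, 11.7 and 14.3 RPM, and the log2 fold change was −2.13 ± 0.28 with an adjusted p of 9.90e-05. Every OVA library was below every saline library. The ratio of Ocln to Tjp1 differed by 0.28 in Sham offspring (exact permutation p = 0.125, adjusted 0.212) and by 0.34 in PM offspring (p = 0.0515, adjusted 0.103). With the shallow libraries left out the falls were −2.02 and −1.42, and both were called.

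**Figure D2:**
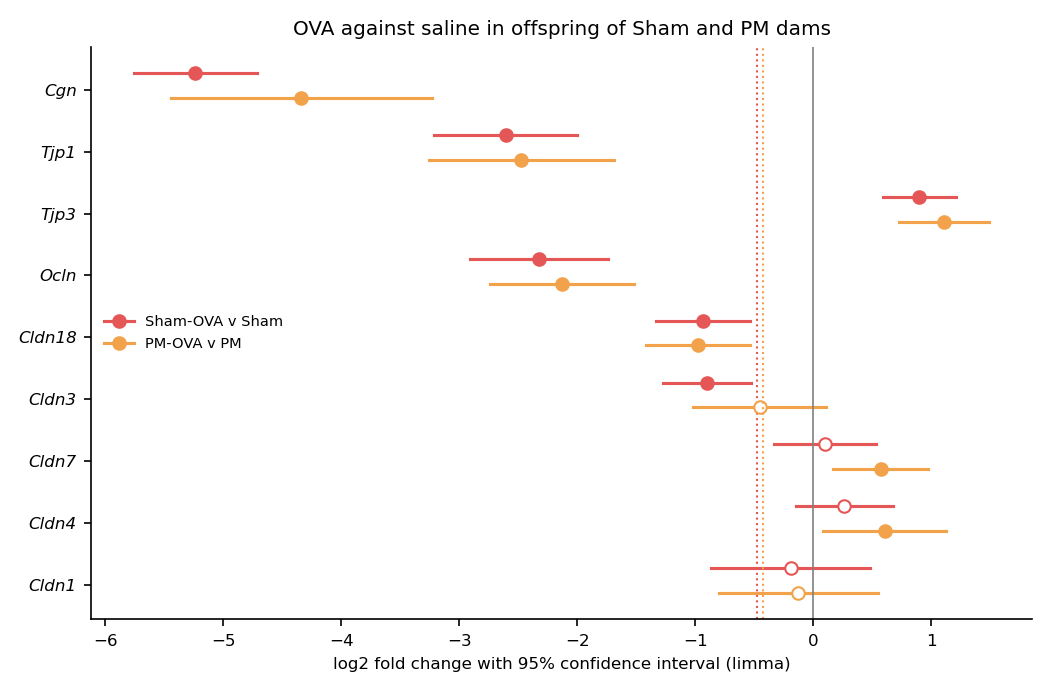
Log2 fold change of OVA against saline on the horizontal axis for each gene, with 95% confidence intervals, in offspring of Sham and PM dams. Filled points have an adjusted p under 0.05 and dotted lines mark the median of all genes tested, −0.48 and −0.43. Cgn, Tjp1 and Ocln lie far to the left of the median gene and Tjp3 to the right in both maternal groups.

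Among Cldn1, Cldn3, Cldn4, Cldn7 and Cldn18, no claudin changed as much as Cgn, Tjp1 or Ocln. Cldn18, the alveolar claudin, stood at 860, 1013 and 1253 RPM in Sham (lowest, median, highest) and at 623, 592, 322, 628 and 619 RPM in Sham-OVA replicates 1 to 5. It stood at 1047, 1106 and 1390 RPM in PM and at 847, 733, 439 and 422 RPM in PM-OVA replicates 1 to 4. No OVA library reached the lowest saline library of its own maternal group. The log2 fold change was −0.93 ± 0.19 (adjusted p = 0.000479) in Sham offspring and −0.98 ± 0.20 (adjusted p = 0.00125) in PM offspring. Relative to the median gene these falls were −0.45 and −0.55. The study's supplement lists Cldn18 among genes whose expression changed in Sham offspring only, by its stricter cut-off with DESeq2. In limma neither fall reached that cut-off.

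Cldn3 stood at 155, 175 and 243 RPM in Sham (lowest, median, highest) and at 97.5, 106, 69.3, 105 and 136 RPM in Sham-OVA replicates 1 to 5, with no overlap. Its log2 fold change was −0.90 ± 0.18 with an adjusted p of 0.000382. In PM it stood at 155, 173 and 206 RPM and in PM-OVA replicates 1 to 4 at 139, 238, 130 and 64.3 RPM. PM-OVA replicate 2 was above every PM library and the other 3 were below, and the log2 fold change of −0.46 ± 0.26 (95% confidence interval −1.02 to 0.11) had an adjusted p of 0.138. Without PM-OVA replicate 2 it was −0.75 and was called (adjusted p = 0.0102), and without PM-OVA replicate 4 it was −0.12 (adjusted p = 0.577).

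Cldn7 and Cldn4, claudins of airway epithelium, were called in PM offspring and not in Sham offspring by limma, but their calls in Sham offspring depend on the scaling. Cldn7 stood at 46.8, 56.9 and 75.1 RPM in Sham (lowest, median, highest), at 47.6, 51.9, 104, 44.4 and 73.0 RPM in Sham-OVA, at 47.5, 54.2 and 64.3 RPM in PM and at 49.7, 89.3, 110 and 89.5 RPM in PM-OVA. The groups overlapped in both cases. Its log2 fold change was 0.10 ± 0.20 in Sham offspring (adjusted p = 0.688) and 0.57 ± 0.19 in PM offspring (adjusted p = 0.0175). Cldn4 stood at 7.41, 9.31 and 16.4 RPM in Sham, at 13.0, 12.2, 11.2, 11.9 and 11.9 RPM in Sham-OVA, at 6.40, 8.81 and 11.2 RPM in PM and at 12.3, 21.9, 14.5 and 8.53 RPM in PM-OVA. For Cldn4 the log2 fold change was 0.26 ± 0.19 in Sham offspring (adjusted p = 0.235) and 0.60 ± 0.24 in PM offspring (adjusted p = 0.0417). The PM call of Cldn4 was lost without any 1 of 7 of the 11 libraries (PM replicates 1, 2, 3, 5 and 6 and PM-OVA replicates 2 and 3), with adjusted p up to 0.155. The PM call of Cldn7 was lost without PM-OVA replicate 3 (adjusted p = 0.0696) and with both shallow PM-OVA libraries left out (0.28, adjusted p = 0.219). In Sham offspring Cldn4 was higher and called with median-of-ratios scaling (0.62, adjusted p = 0.0108), quantile normalisation (0.72, adjusted p = 0.00454), edgeR (0.68, adjusted p = 0.00554) and DESeq2 (0.59, adjusted p = 0.00591). Cldn7 was higher and called there in edgeR (0.70, adjusted p = 0.0313) and DESeq2 (0.66, adjusted p = 0.0388). With the values centred on the epithelium list both were called as well. For neither gene was the difference between the maternal groups itself called, as given with the interaction below.

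Cldn1, the least abundant of the 5 claudins per kilobase, was called in neither comparison. It stood at 6.35, 17.0 and 24.2 RPM in Sham and from 5.90 to 18.2 RPM in Sham-OVA, with a log2 fold change of −0.19 (95% confidence interval −0.86 to 0.48, adjusted p = 0.606). In PM it stood at 7.92, 16.1 and 20.9 RPM and in PM-OVA from 7.81 to 23.6 RPM, with a log2 fold change of −0.13 (−0.80 to 0.55, adjusted p = 0.733). The groups overlapped in both comparisons.

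In the deposited values the mean share of Cldn18 in the mixture of claudins was lower in OVA lung, but the groups overlapped. The shares were not computed with the trend with length and GC removed. The ratio of Cldn3 to Cldn18 changed sign after that removal, as given below, so the direction for Cldn18 may depend on it. As a share of the summed RPM per kb of the 5 claudins, Cldn18 took 55.3 ± 3.47% (SD) in Sham and 49.7 ± 7.10% in Sham-OVA, and 59.3 ± 2.22% in PM and 45.2 ± 8.81% in PM-OVA. It ranged from 49.1 to 59.1% in Sham and from 38.4 to 55.4% in Sham-OVA. In PM it ranged from 55.3 to 62.3% and in PM-OVA from 36.8 to 56.4%. The lowest OVA values were those of the shallow Sham-OVA replicate 3 and PM-OVA replicate 3. The shares themselves were not tested. The share of Cldn7 was 6.97 ± 0.600% in Sham and 14.03 ± 8.14% in Sham-OVA, and 6.47 ± 0.567% in PM and 15.7 ± 7.57% in PM-OVA. It was highest in the 3 shallow libraries, at 21.0% and 23.2% in PM-OVA replicates 3 and 4 and 28.4% in Sham-OVA replicate 3. The share of Cldn4 was 1.33 ± 0.300%, 2.71 ± 0.388%, 1.13 ± 0.236% and 2.57 ± 0.461% in the same order of groups. Within libraries, the ratio of Cldn4 to Cldn18 was higher in OVA lung by 1.20 on the log2 scale in Sham offspring (exact permutation p = 0.00126, adjusted 0.00884) and by 1.58 in PM offspring (p = 0.00303, adjusted 0.0106). The ratio of Cldn7 to Cldn18 was higher by 1.03 and 1.54 with the same p-values, and neither of these ratios overlapped between the groups. With each library's trend with length and GC removed, Cldn4 to Cldn18 was at 0.41 (adjusted 0.0972) and 0.74 (adjusted 0.0318) and Cldn7 to Cldn18 at 0.26 (adjusted 0.583) and 0.73 (adjusted 0.0566) by the exact permutation test. Without Sham-OVA replicate 3 the ratio of Cldn7 to Cldn18 was higher by 0.65 in Sham offspring (adjusted 0.0106), and without both shallow PM-OVA libraries it was higher by 0.82 in PM offspring (adjusted 0.0778). The latter test had 2 PM-OVA libraries, which limits how small its p can be. The ratio of Cldn1 to Cldn18 was higher by 0.74 (exact permutation p = 0.0126, adjusted 0.0354) and 0.85 (p = 0.00909, adjusted 0.0283), and leaving out 1 library lost that call for 5 of 12 libraries in Sham offspring (Sham replicate 7 and Sham-OVA replicates 1, 2, 4 and 5) and 3 of 11 in PM offspring (PM-OVA replicates 1, 2 and 3), with adjusted p up to 0.103. The ratio of Cldn3 to Cldn18 differed by 0.03 (exact permutation p = 0.817, adjusted 0.847) and 0.52 (p = 0.0364, adjusted 0.0848, or 0.0408 without PM-OVA replicate 4), and after removal of that trend it was at −0.93 (exact permutation, adjusted 0.0118) and −0.54 (adjusted 0.0764).

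**Figure D3:**
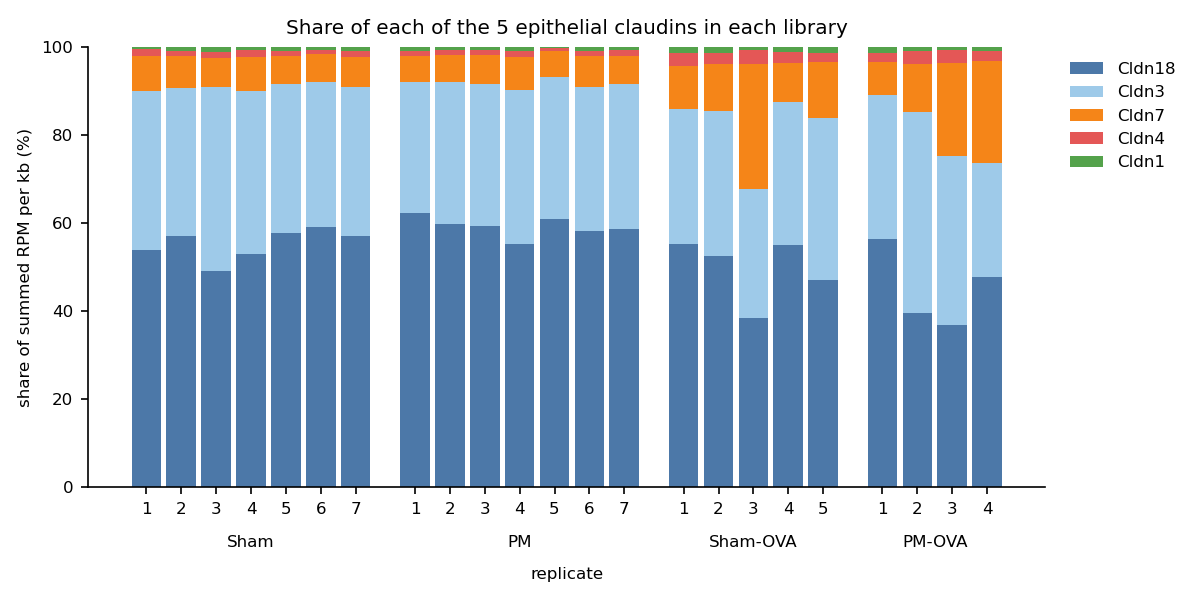
Stacked bars give the share of each of the 5 claudins in their summed RPM per kb (percent, vertical axis) in each library, grouped by treatment and numbered by replicate. The Cldn7 and Cldn4 segments are taller in OVA libraries, and Cldn7 is tallest in PM-OVA replicates 3 and 4 and in Sham-OVA replicate 3.

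Depth, gene length and base composition were set beside these values. In PM-OVA, replicates 1 to 4 held 12355561, 11073754, 5922469 and 4324326 reads, and Tjp1 and Cgn were lower the fewer the reads. Tjp1, Cgn and Ocln, which fell most, have 7811, 6021 and 4222 bases of exon, and Tjp3 and Cldn7 have 3714 and 1948 bases (60.7% and 57.0% GC). Cldn1 (4841 bases, 39.0% GC) and Cldn18 (4456 bases) are longer than Ocln and changed less, and Cldn3, the shortest (1259 bases, 62.7% GC), fell in Sham offspring. The part of length or of GC alone in these changes was not tested. After removal of each library's trend with length and GC, Cgn was at −5.23 in Sham and −4.36 in PM offspring, Tjp1 at −2.15 and −2.005, Ocln at −2.04 and −1.80, Cldn18 at −0.79 and −0.81 and Tjp3 at 0.54 and 0.68, all called. Cldn7 and Cldn4 then lay below 0, at −0.53 and −0.38 in Sham offspring and −0.088 and −0.076 in PM offspring, and Cldn3 was lower in both (−1.72 and −1.36, called). Of these 4 values that of Cldn7 in Sham offspring was called, and Cldn1 lay above 0 (0.26 and 0.37, not called).

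Epithelial markers did not all move as the scaffold did. Epcam, a partner of Cldn7 at the cell surface, stood at a mean of 73.8 RPM in Sham and 99.5 in Sham-OVA, and at 73.5 in PM and 105 in PM-OVA. The adherens junction gene Cdh1 stood at 387 and 393 RPM and at 416 and 473 RPM in the same groups, with log2 fold changes of 0.01 and 0.18 that were not called. Cdh1 was above 0 in both comparisons in 6 other fits (median-of-ratios, quantile and epithelium-centred scaling, removal of the trend with length and GC, edgeR and DESeq2). Of the 10 genes of the epithelium list, 1 was higher and 4 lower in Sham-OVA and 2 were higher and 4 lower in PM-OVA, with Foxa2 the highest by the mean of both (0.35 and 0.57, below 0 in 1 of these 6) and Foxa1 the lowest (−2.51 and −2.001). Among the keratin genes of this list, Krt18 went from a mean of 18.0 RPM in Sham to 5.46 in Sham-OVA, and from 17.9 in PM to 7.92 in PM-OVA. Krt7 went from 350 to 254 and from 380 to 276 RPM, and Krt8 from 0.990 to 0.0891 and from 0.974 to 0.139 RPM. Krt19 went the other way, from 151 to 189 and from 170 to 232 RPM. With the values centred on this list, Cgn was at −4.66 and −3.99, Tjp1 at −2.03 and −2.13, Ocln at −1.75 and −1.78 and Tjp3 at 1.47 and 1.46 in Sham and PM offspring. The summed level of the epithelium list ranged from 1232 to 1654 RPM in Sham and 1198 to 1433 in Sham-OVA, and from 1261 to 2089 in PM and 1301 to 1683 in PM-OVA, and no marker of it was at 0 in every library of a group. The alveolar type 1 list summed to 6377 to 8959 RPM in Sham and 3964 to 5539 in Sham-OVA, and to 7571 to 8220 in PM and 4845 to 5855 in PM-OVA. In it 6 of 8 genes were lower in both comparisons, and 1 was higher in Sham-OVA and 0 in PM-OVA. Among all genes 47.5% and 45.2% were lower and 20.6% and 20.1% higher. Ager was the highest of this list (0.53 and 0.40) and Cav1 the lowest (−1.99 and −1.89). Of 8 alveolar type 2 genes, 3 were higher and 3 lower in both comparisons, with Sftpc the highest (1.19 and 1.14) and Lamp3 the lowest (−3.34 and −4.25). Of 6 club genes, 4 were lower in Sham-OVA and 3 in PM-OVA, and 1 was higher in each. Of 8 multiciliated genes, 1 was higher and 1 lower in Sham-OVA, and 3 were higher and 0 lower in PM-OVA. The medians were −1.49 and −0.63 for club and −0.33 and 0.33 for multiciliated genes. None of these genes was called in PM-OVA against Sham-OVA or in the interaction. The goblet list rose in all 7 genes in both, and the leukocyte list in 3 of 7 genes, from 505 to 1016 RPM in Sham to 1301 to 2056 in Sham-OVA and from 571 to 760 in PM to 1179 to 1731 in PM-OVA. Their part in the values of the 9 genes was not tested.

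The maternal exposure itself was compared in saline and in OVA offspring, and none of the 9 genes was called. In PM against Sham, limma called 0 of the 9 genes and 0.0% of all genes. At an unadjusted p under 0.05 it found 0 of the 9 and 731 of all genes, and DESeq2 and edgeR on the recovered reads each called 0 of the 9 and 0 of all. The log2 differences ran from −0.17 for Cldn4 (95% confidence interval −0.52 to 0.17) to 0.26 for Cgn (−0.12 to 0.65). In PM-OVA against Sham-OVA, limma again called 0 of the 9 and 0.0% of all genes, with 0 and 313 at an unadjusted p under 0.05. DESeq2 called 0 of the 9 and 1 of all genes, and edgeR 0 and 0. Cgn had the largest difference, 1.16 ± 0.62 (−0.23 to 2.55), with 3 of the 4 PM-OVA libraries above all Sham-OVA libraries and 1 at 0 reads. On the recovered reads the difference was 3.02 in DESeq2 and 2.94 in edgeR, both with an adjusted p of 1.00, and Cgn was the 1 gene of the 9 at an unadjusted p under 0.05 in each. With the shallow OVA libraries left out it was 2.15 (limma, adjusted p = 0.214). With any 1 library left out it ran from 0.46 to 1.70 in limma and was not called. The other 8 genes lay between 0.02 for Cldn1 and 0.42 for Cldn7, and the intervals of Tjp1 (−1.05 to 1.46) and Ocln (−0.72 to 1.34) were wide.

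The interaction asks whether OVA changed a gene differently in offspring of PM dams. In limma it called 0 of the 9 genes and 0.0% of all, with 0 and 854 at an unadjusted p under 0.05, and DESeq2 called 0 and 2, edgeR 0 and 0. Its values were 0.90 ± 0.57 for Cgn (−0.28 to 2.08), 0.47 ± 0.28 for Cldn7 (−0.11 to 1.06), 0.45 ± 0.32 for Cldn3 (−0.21 to 1.10) and 0.34 ± 0.30 for Cldn4 (−0.28 to 0.96). Those of Tjp1 (0.13), Tjp3 (0.21), Ocln (0.19), Cldn1 (0.06) and Cldn18 (−0.04) were smaller. With the 3 shallow OVA libraries left out, a choice made after seeing the data that leaves 4 Sham-OVA and 2 PM-OVA libraries, Cgn was at 1.89 with an adjusted p of 0.0287, in a fit that called 4.29% of all genes. Cldn3 was at 0.81 there (limma, adjusted p = 0.0552). Of those 2 PM-OVA libraries, replicate 1 held 92 of the 111 Cgn reads of the whole PM-OVA group. With any 1 of the 23 libraries left out, the interaction of Cgn ran from 0.19 to 1.44 in limma and was not called. In DESeq2 the interaction of Cgn was 2.85 (adjusted p = 0.0726) and in edgeR 2.90 (adjusted p = 0.371). The ratio of Cldn3 to Cldn18 was lower in PM than in Sham by 0.24 on the log2 scale (exact permutation p = 0.0175, adjusted 0.0445), and it lost that call without any 1 of 9 of the 14 libraries (PM replicates 1, 2, 3, 5, 6 and 7, Sham replicates 3 and 4 and the library labelled Sham replicate 1), with adjusted p up to 0.0952. These comparisons share libraries with the OVA comparisons above.

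**Figure D4:**
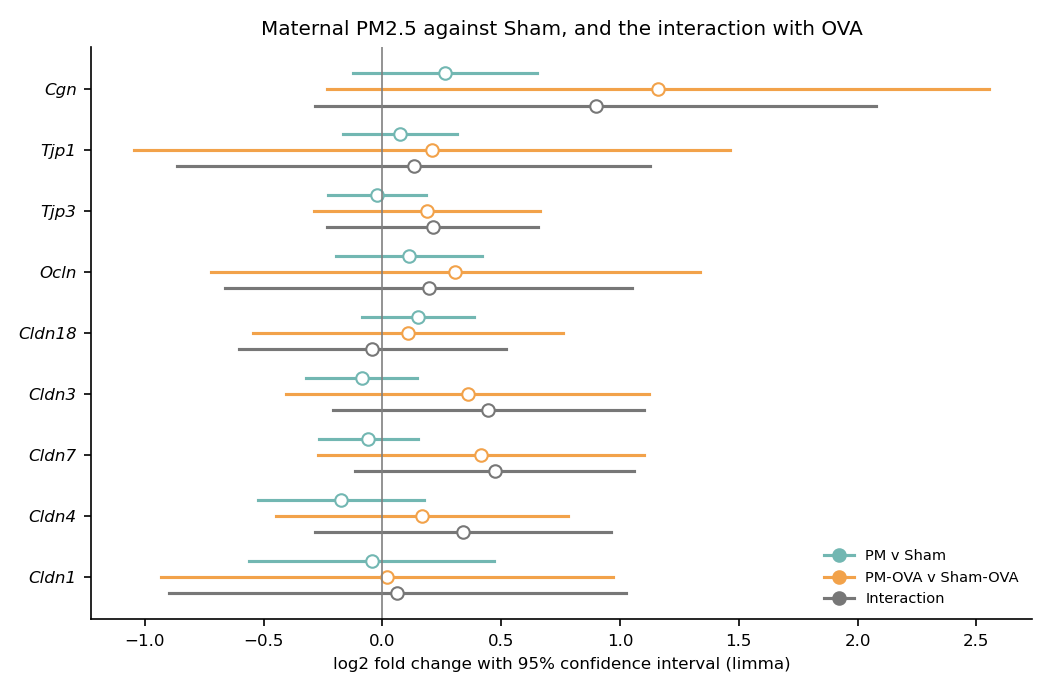
Log2 difference with 95% confidence interval (horizontal axis) for PM against Sham, PM-OVA against Sham-OVA and the interaction, for each of the 9 genes. Open points have an adjusted p of at least 0.05, and every interval crosses 0, that of Cgn in PM-OVA against Sham-OVA reaching from −0.23 to 2.55.

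Other junction genes differed from list to list, and the counts below stand beside 47.5% lower and 20.6% higher among all genes in Sham offspring and 45.2% and 20.1% in PM offspring. Of 19 other plaque and polarity genes tested, 15 were lower and 0 higher in each OVA comparison, with medians of −1.31 and −1.30 against −0.48 and −0.43 for all genes. Pard6b, a partner of atypical protein kinase C, fell most (−2.48 in Sham and −2.26 in PM offspring), and Pard6a was the highest by the mean of both (0.28 and 0.14, not called, and below 0 in 1 of the 6 other fits). Among the 6 other fits the number of lower genes in this list was 14 or 15 in Sham and 15 in PM offspring, and that of higher genes 1 to 3. Named after its values were seen, as the closest relative of Cgn, Cgnl1, the gene of paracingulin, fell by 0.85 and 0.80 on the log2 scale.

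Of the 11 other membrane proteins of the junction, 2 were higher and 7 lower in Sham and 2 higher and 6 lower in PM offspring. Jam2, an adhesion molecule also found in endothelium, fell most by the mean of both comparisons (−2.04 and −1.78), and Crb3, an apical polarity protein, rose most (0.63 and 0.78), although it was at −0.09 in Sham offspring after the trend with length and GC was removed. Of 21 other claudin genes 11 passed the filter, and 2 were higher and 4 lower in each comparison, a share near that of all genes. Cldn8 fell most (−3.17 and −2.77) and Cldn22 rose most (1.84 and 1.72). Cldn5, the endothelial claudin, also named after its values were seen, was at 0.44 and 0.49, was not called and lay below 0 in 1 of the 6 other fits.

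Of 17 adherens junction and desmosome genes, 12 were lower and 4 higher in Sham and 10 lower and 4 higher in PM offspring, with Nectin3 the lowest (−1.86 and −1.72) and the desmosomal cadherin Dsc2 the highest by the mean of both (0.56 and 1.45). Of 15 regulators of junctional actomyosin, 12 were lower and 0 higher in each, and Myh10, a non-muscle myosin heavy chain, fell most (−4.09 and −3.55). The highest was Tiam1 (0.27 and 0.27, not called, but higher and called in all 6 other fits). Of 20 claudin partners and regulators of epithelial genes, 11 were lower and 3 higher in Sham and 10 lower and 5 higher in PM offspring, shares near those of all genes. Elf3, an epithelial transcription factor, rose most (1.93 and 1.95). Zeb1, known as a repressor of epithelial genes, fell most (−2.09 and −2.12) by the mean of both. Grhl2, a Grainyhead factor known to act on claudin genes and named here after its values were seen, fell by 2.33 and 1.56.

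**Figure D5:**
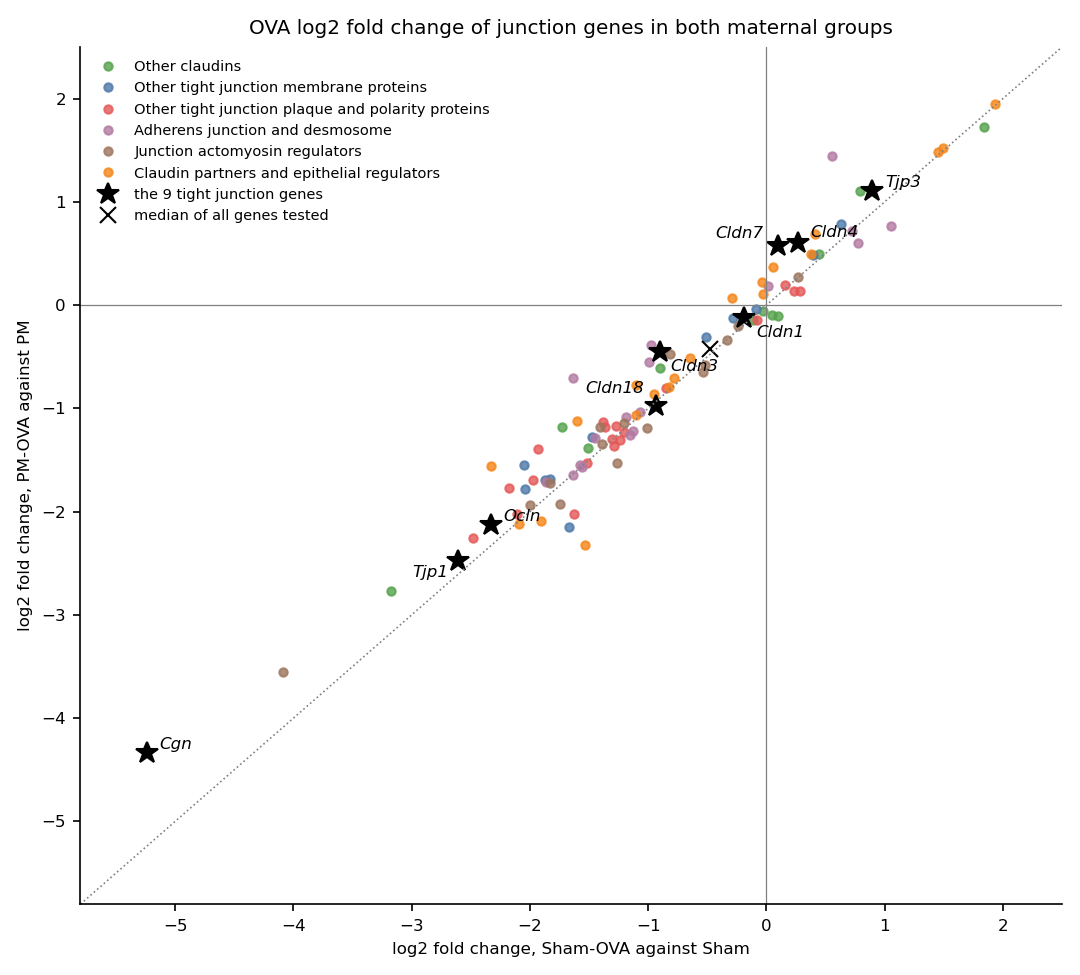
Log2 fold change in Sham-OVA against Sham (horizontal axis) and in PM-OVA against PM (vertical axis), 1 point per gene of 6 lists of junction genes, with the 9 genes as stars and the median of all genes as a cross. The dotted line marks equal values, Cgn lies at the lower left beyond all listed genes, and Tjp3 lies at the upper right.

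Within the 9 genes, profiles over the 23 libraries were most alike for Tjp1 and Ocln, with a root mean square difference of 0.30 on the centred log2 scale, for Cldn3 and Cldn18 (0.31) and for Cldn4 and Cldn7 (0.40). Cgn and Tjp3 were least alike (2.95). Among 11706 other genes with a mean of at least 5 RPM, the closest to Tjp1 were Utrn (0.16) and Tead1 (0.18), to Ocln Akap5 (0.18), and to Cgn Gm38394 (0.34) and Bach1 (0.40). For Tjp3 they were B4galnt1 (0.18) and Ints9 (0.19), and for Cldn18 Prep (0.11) and Tmem50b (0.13). For the airway claudins they were Arhgef16 and Bicdl2 (both 0.19) for Cldn7, Ypel3 and Gpr137 (both 0.26) for Cldn4, 0610040J01Rik (0.20) and Cfap298 (0.21) for Cldn3, and Adamts5 (0.26) and Bst1 (0.28) for Cldn1. These likenesses describe 23 libraries that share groups and depth.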

How the data were processed

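Poly(A) RNA from 23 lungs was sequenced as stranded single-end libraries, and per the study's methods the authors used Trimmomatic for trimming, Bowtie2 for alignment to GRCm38 and SeqMonk for counting. The submitters' notes name mm10. The deposited values are RPM, although the table is named for RPKM: 100% of them are whole multiples of 1 read (tolerance 0.05), so that reads were recovered. Bowtie2 does not align across introns, and its effect on genes with many exons was not tested.

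Each comparison was fitted with limma 3.58.1 (R 4.3.3, with a trend) on log2(RPM + 0.5) over 16795 genes that reached 0.5 RPM in 4 or more of the 23 libraries, with the groups compared in each fit and all 4 groups in the interaction. Calls have a Benjamini-Hochberg adjusted p under 0.05. The pseudocount makes changes of weakly expressed genes look smaller. Ratios within libraries were tested with two-sided exact permutation tests. Alternatives, including edgeR 4.0.16 and DESeq2 1.42.0 on the recovered reads, are given in the closing section. The members and gene lists were chosen with earlier results of these data known. Beyond the members, from lists whose genes are named, the text gives those with the highest and lowest mean of both OVA log2 fold changes. Defining markers of cell types are also named with their levels, as are the genes closest to a member in profile. Genes named after their values were seen are marked as such. The fits were tested on simulated data. Some genes are not reported here.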

Additional observations from a re-analysis of the deposited data

Results flagged for a closer look

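Of 36 groups of 4 to 7 libraries (9 genes in 4 groups), 7 held a library whose gap to its nearest neighbour passed Dixon's limit. Chance gives about 1 in 20 for a single group. The 9 genes share the same libraries, so the 36 groups are not independent and 1 odd library can be flagged for several genes. Sham-OVA replicate 3, the shallowest library, was the lowest of its group for Tjp1 (23.3 RPM, next 81.1), Ocln (7.15, next 19.6) and Cldn18 (322, next 592). PM replicate 5 was the lowest PM library for Tjp1 (298 RPM, next 434) and Ocln (72.1, next 95.2) and the highest for Cldn18 (1390, next 1161). The library labelled Sham replicate 1, which held Eif2s3y, was the lowest Sham library for Cldn1 (6.35 RPM, next 14.4). Cgn, Tjp3, Cldn3, Cldn4 and Cldn7 had no such library.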

How the results depend on the processing

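Under all alternatives run and without any 1 library, Cgn, Tjp1, Ocln, Cldn18 and Tjp3 kept their direction in both OVA comparisons, and they stayed called under all of them but the stricter rule and, for Tjp3 in PM offspring, the replicate block with the trend with length and GC removed (0.67, adjusted p = 0.0717). The stricter rule, applied with limma, left 0 higher and 1 lower gene in Sham offspring (1 and 5 otherwise) and 0 and 0 in PM offspring (3 and 4 otherwise). In Sham offspring the number of higher genes was 2 with median-of-ratios scaling or quantile normalisation and 3 when centred on the epithelium list, in edgeR and in DESeq2. In PM offspring it was 1 with the trend with length and GC removed, and from 1 to 3 with 1 library left out (1 without PM-OVA replicate 3). Removal of that trend reversed Cldn7 in Sham offspring (−0.53) and Cldn7 (−0.088) and Cldn4 (−0.076) in PM offspring; the cause was not tested. Without the filter Cldn4 lost its PM call (adjusted p = 0.0914). With the shallow OVA libraries left out, 1 gene (Cgn) was called in the interaction, beside 4.29% of all genes. With any 1 library left out the interaction of Cgn was not called and ran from 0.19 to 1.44. Of the ratios, removal of the trend with length and GC, chosen here after seeing the data, turned Cldn3 to Cldn18 to −0.93 in Sham offspring. Leaving out the shallow libraries leaves 2 PM-OVA libraries, which limits how small a permutation p can be. Every ratio called in PM offspring then kept its direction but had an adjusted p of 0.0778 or, for Cldn1 to Cldn18, 0.167 (exact permutation). Cldn1 to Cldn18 in Sham offspring also had 0.0778. In the saline comparison of PM with Sham, none of the 9 genes was called by limma, edgeR or DESeq2.

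The replicate numbers are those of the sample titles and are shared by the groups, but the names of the OVA libraries carry other numbers, and same-numbered libraries did not deviate together in every pair, with correlations of −0.067 to 0.115 in Sham-OVA against Sham (5 pairs), −0.101 to 0.062 in PM-OVA against PM (4 pairs), −0.248 to 0.104 in PM against Sham (7 pairs) and −0.311 to 0.617 in PM-OVA against Sham-OVA (4 pairs), so the numbers were not taken as pairs. With the replicate block, 1 gene was higher and 5 lower in Sham offspring and 1 was higher and 4 lower in PM offspring. With the block and the trend with length and GC removed, 0 were higher in PM offspring, and Cldn7 was at −0.55 in Sham and −0.056 in PM offspring and Cldn4 at −0.076 in PM offspring. In the block every ratio test that was called without it had an adjusted p of 0.269 (exact permutation within pairs), which few pairs limit.

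Depth limits Cgn most: the 2 shallowest OVA libraries held 0 of its reads, which allows levels of up to 0.932 and 0.545 RPM there.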
